A study of Mus musculus with 8 samples.

Results

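Opposite-strand genes carry the name of another gene with the ending "os", which marks a transcript that is read from the other DNA strand at the same place in the genome. They were chosen in the mouse expression table by symbol. Of 192 rows that end in "os" or in "os" and a digit, 170 carry the name of another gene in the table, called the host here. Of these 170, 58 were at 0 in every library and 38 lay above 0 but below a mean of 0.1 RPKM (reads scaled for gene length and sequencing depth). The other 74, with 70 hosts, are the genes described here. The gene nearest to the cut on the outside was Tnfsf13os at 0.0983 RPKM, and the nearest on the inside was Zfp652os at 0.116 RPKM. Symbols are spelled as in the table, which writes some mouse genes in capitals.

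The libraries come from splenic CD4+ T cells of C.Cg-Foxp3tm2Tch/J mice aged 8 weeks, a strain that reports Foxp3, so all groups share that allele. The parents of one set of mice drank water with 10 ppm Cd, given as CdCl2, through mating and pregnancy, and the parents of the control mice drank water without it. Cells of each set were taken unstimulated or after 16 hours with anti-CD3/CD28 beads, which engage the antigen receptor and a costimulatory receptor. Each of the 4 groups has 2 libraries, which carry the numbers 6 and 7. Nothing in the labels says which mice or litters they came from, so the p values measure only the spread between these libraries. The libraries held 15542732 to 25486791 reads counted on genes.

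The cells matched their labels by the marker genes. The summed level of 6 T cell genes was 2432 to 2544 RPKM in unstimulated and 1742 to 1837 RPKM in stimulated libraries, and that of 6 activation genes was 166 to 218 RPKM and 1268 to 1373 RPKM. The lists of other cells were low, but several moved with stimulation. The myeloid list was at 1.87 to 2.03 RPKM in unstimulated and at 0.380 to 0.582 RPKM in stimulated libraries. Its fall was that of Itgam, at 1.56 to 1.85 RPKM and 0.251 to 0.398 RPKM, while Csf1r overlapped and Cd14 was at 0 throughout. The NK cell list was at 13.8 to 17.2 RPKM and at 3.99 to 6.30 RPKM. The B cell list was at 3.12 to 3.76 RPKM and at 4.19 to 4.89 RPKM, most of it Cd79a, with Ms4a1 at 0 throughout. The regulatory T cell list was at 6.32 to 7.95 RPKM and at 8.52 to 11 RPKM, where Ikzf2 overlapped and Foxp3 did not. In none of these 4 lists did the summed levels of unstimulated and stimulated libraries overlap, and the part of such cells in the results was not tested. The erythroid list (0.365 to 1.72 RPKM and 1.04 to 1.38 RPKM) and the CD8 list (9.52 to 10.7 RPKM and 10.3 to 11.8 RPKM, nearly all of it Cd8b1) overlapped. In bulk RNA, fewer cells of a type and less RNA per cell cannot be told apart.

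Many mammalian promoters are transcribed in both directions. The RNA that leaves the promoter away from the coding gene is called divergent, and RNA that is read back across the coding gene is called antisense. Some such RNAs act on the gene beside them, by recruiting chromatin proteins, by hindering its transcription or by pairing with its transcript, while for many others no function is known. T cell activation switches on kinase signalling, metabolism and division within hours, and lowers many genes of the resting state.

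The name did not always stand for a noncoding RNA. Of the 74 genes, 55 were lncRNAs in RefSeq, 6 were protein coding, 1 was an antisense RNA, 1 was a transcribed pseudogene, and 11 were found in GENCODE only. Among the coding ones were WDR83OS, SLC7A6OS, CEBPZOS, Toporsos and Ccpg1os. GENCODE also lists Chd3os, the gene Rnf227 of RefSeq, as protein coding. They are kept here under the rule, and are called opposite-strand genes rather than lncRNAs.

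All 74 lay on the strand opposite to the host. Inside the host lay 29, 15 overlapped its start and 11 its end, 12 were divergent (starting within 5000 bases upstream without overlap), 5 faced the host tail to tail, and 2 lay further upstream. By GENCODE exons, 25 shared no exon base with the host, and 7 had most of their exon bases on exons of the host. Whether the read counting used the strand is not given in the sources used here, and without it reads of a host and its opposite-strand gene cannot be told apart where they overlap. For this reason, the share of exon bases on host exons is given beside the results it touches. It is taken from GENCODE, while reads were counted on RefSeq genes, so it is only a rough guide to shared reads. For genes inside the host, it also leaves out any host reads that come from introns.

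The starts of the genes are shown first, because their arrangement differs between the genes that the results turn on. All are RefSeq sequences of GRCm38.p6. The first 4 are stretches between the start of a divergent gene and that of its host, read on the strand of the host and without bases that GENCODE counts as untranslated regions. They lie at chr11:60931868-60932032 (plus strand), chr4:155761125-155761191, chr13:48968061-48968111 and chr11:85235131-85235165 (minus strand). Capitals mark matches to the GC box GGGCGG or the CRE TGACGTCA on either strand.
Map2k3os and MAP2K3: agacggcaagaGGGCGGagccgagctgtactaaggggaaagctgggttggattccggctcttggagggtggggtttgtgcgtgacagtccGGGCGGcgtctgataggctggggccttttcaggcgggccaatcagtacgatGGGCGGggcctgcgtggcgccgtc
Atad3aos and ATAD3A: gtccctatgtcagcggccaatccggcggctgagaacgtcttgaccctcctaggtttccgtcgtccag
FAM120AOS and FAM120A: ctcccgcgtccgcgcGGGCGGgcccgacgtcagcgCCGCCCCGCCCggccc
Appbp2os and APPBP2: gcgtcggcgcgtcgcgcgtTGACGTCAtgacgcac
The next 3 genes lie inside their hosts, and the 250 bases before their own starts are shown on the strand of the opposite-strand gene, which is the minus strand for all 3. They lie at chr12:3862245-3862494, chr14:103699433-103699682 and chr17:29596306-29596555. Here capitals mark the AP-1 motif TGANTCA or the GC box.
Dnmt3aos: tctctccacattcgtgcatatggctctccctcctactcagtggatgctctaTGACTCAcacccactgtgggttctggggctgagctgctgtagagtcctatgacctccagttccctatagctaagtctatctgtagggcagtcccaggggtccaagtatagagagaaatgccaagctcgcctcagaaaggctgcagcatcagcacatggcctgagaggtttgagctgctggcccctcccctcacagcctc
Slain1os: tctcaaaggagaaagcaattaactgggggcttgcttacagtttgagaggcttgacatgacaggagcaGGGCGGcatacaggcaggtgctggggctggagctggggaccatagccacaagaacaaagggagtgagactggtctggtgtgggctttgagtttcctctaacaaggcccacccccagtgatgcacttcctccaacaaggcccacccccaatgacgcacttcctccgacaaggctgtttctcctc
Tbc1d22bos: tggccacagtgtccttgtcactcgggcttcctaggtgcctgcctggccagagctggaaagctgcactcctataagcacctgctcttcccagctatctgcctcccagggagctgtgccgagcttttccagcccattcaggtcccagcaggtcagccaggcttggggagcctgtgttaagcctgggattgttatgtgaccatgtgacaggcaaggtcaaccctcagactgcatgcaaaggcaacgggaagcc

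The stretches between divergent pairs were rich in CpG and those inside hosts were poor in it. The stretch of Map2k3os held 14 CpG in 165 bases and 3 GC boxes, and that of FAM120AOS held 12 CpG in 51 bases and 3 GC boxes. The 250 bases before Dnmt3aos held 2 CpG, and those before Slain1os and Tbc1d22bos held 3 each. In windows of 300 bases around a start (250 before and 50 after it), 53 of the 74 genes matched with 57 windows. The median was 33 CpG for divergent genes, 20 for genes that overlap the host start, 5 for genes inside the host and 20 for the hosts, against 7 over all 32851 windows. A GC box on either strand was in 7 of 11 windows of divergent genes and in 3 of 23 windows of genes inside the host (63.6% and 13%), against 35.7% of all windows. The AP-1 motif was in 4 of the 57 windows (7.02%), against 7.81% of all windows. The CRE was in 2 of the 57 (3.51%), against 1.79%. The E box CACGTG was in 9 of the 57 (15.8%), against 7.15%, and TATAAA was in 6 (10.5%), against 13.6%. The motifs were searched on both strands, and matches of different motifs may overlap.

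**Figure D1:**
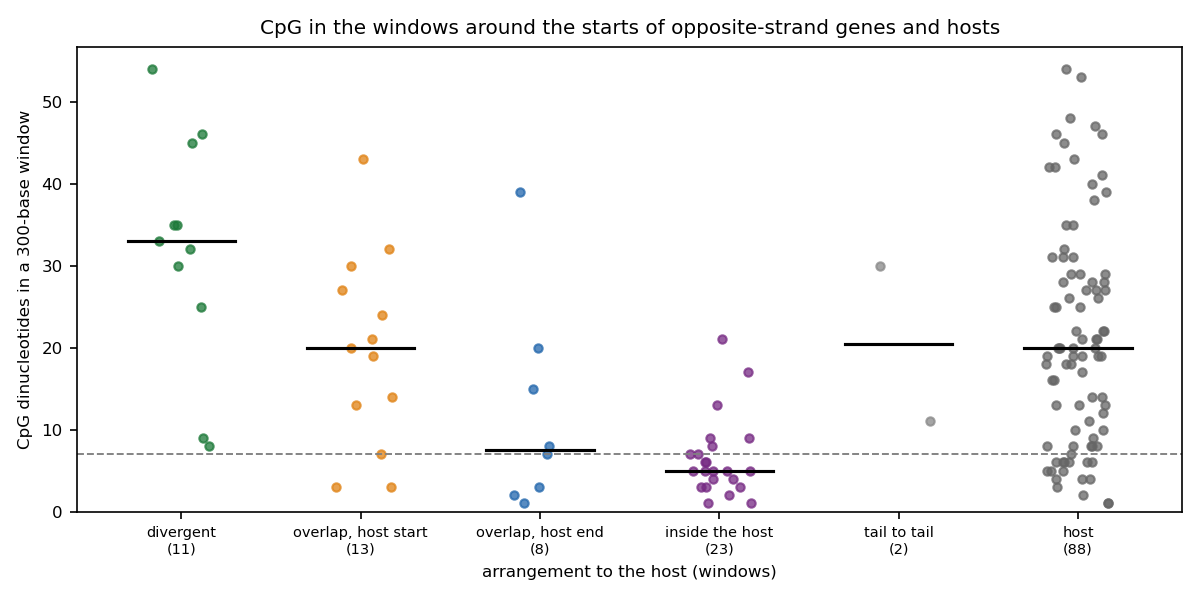
Number of CpG dinucleotides in the 300-base window around each start (vertical axis) by the arrangement of the opposite-strand gene to its host, with the hosts on the right. Points are windows, black lines are medians and the dashed line is the median of 7 over all windows. Divergent genes had a median of 33 and genes inside the host of 5.

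Most of these genes were weakly expressed. The median of the mean level over the 8 libraries was 1.56 RPKM, against 17.3 RPKM for their hosts. In 7 pairs the opposite-strand gene was the higher one. The highest was WDR83OS, which encodes a small protein of the endoplasmic reticulum membrane that helps multipass proteins fold, with 52.5 RPKM against 13.1 RPKM for WDR83. The next was SLC7A6OS, with 28.3 RPKM against 25.1 RPKM for the amino acid transporter gene SLC7A6. The highest RNA listed as noncoding was Epb41l4aos, with 25.9 RPKM against 0.374 RPKM for EPB41L4A. It was nearly level, with 26.6 and 27.6 RPKM in unstimulated and 25.9 and 25.8 RPKM in stimulated control cells, and 26.6 and 25.2 RPKM against 22.8 and 27.0 RPKM in Cd cells. The tests covered 12605 genes with a mean of at least 0.5 RPKM, among them 53 of the 74 opposite-strand genes, 67 of the 70 hosts and both genes of 51 pairs.

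The first question was how these genes responded to stimulation. In control offspring 3 rose and 9 fell by more than 2-fold at an adjusted p under 0.01 (limma, Benjamini-Hochberg over all genes tested). The 3 are 5.66% of the 53 and the 9 are 17%, against a background of 11.5% higher and 7.17% lower among all genes tested. In Cd offspring 4 rose (7.55%) and 8 fell (15.1%), against 11.4% and 7.24% of all genes. These comparisons share no library, but the fit took a common estimate of the spread of each gene from all libraries, so their calls are not independent. The median log2 fold change of the 53 was -0.30 in control and -0.35 in Cd offspring, against 0.07 and 0.05 over all genes tested. Among the 67 hosts, 9 rose and 5 fell in control and 8 rose and 7 fell in Cd offspring, with medians of -0.08 and -0.10. The opposite-strand genes that rose in both were Map2k3os, Rab26os and Dnmt3aos. Those that fell in both were Rbm3os, Lppos, Tbc1d22bos, Slain1os, Arhgap15os, Rapgef4os2 and Frmd8os. Of these genes, Map2k3os passed the filter on low values only through its stimulated groups and Frmd8os only through its unstimulated groups. The stimulated Cd values of Arhgap15os also lay below that filter.

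Map2k3os had the largest increase. It starts 187 bases upstream of MAP2K3, the kinase that activates p38 MAP kinases, and runs away from it (chr11:60920941-60931867, minus strand), with no exon base on its exons. In control cells it was at 0.351 and 0.484 RPKM unstimulated and at 2.49 and 3.08 RPKM stimulated. In Cd cells it was at 0.285 and 0.461 RPKM unstimulated and at 2.23 and 2.66 RPKM stimulated. All its unstimulated values lay below the filter of 0.5 RPKM. It passed that filter only through the stimulated groups, so it had to differ. All 4 stimulated libraries lay above all 4 unstimulated ones, on 7 to 86 reads per library. Such a separation, in either direction, was found for 67.9% of all genes tested. The log2 fold change was 2.48 ± 0.26 (SE, n = 2 per group) in control and 2.45 ± 0.26 in Cd offspring (limma, adjusted p = 0.000101 and 0.000111). The host moved the same way. MAP2K3 went from 13.3 and 14.1 RPKM to 47.0 and 47.5 RPKM in control cells and from 14.1 and 14.1 RPKM to 50.0 and 50.5 RPKM in Cd cells. Its log2 fold changes were 1.78 ± 0.05 and 1.83 ± 0.05 (limma, adjusted p = 3.36e-07 and 3.37e-07).

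Dnmt3aos lies inside DNMT3A, the gene of a de novo DNA methyltransferase (chr12:3859293-3862244, minus strand), with 9.60% of its exon bases on host exons. In control cells it was at 0.803 and 0.930 RPKM unstimulated and at 2.14 and 2.93 RPKM stimulated. In Cd cells it was at 0.855 and 1.12 RPKM unstimulated and at 2.79 and 2.35 RPKM stimulated. The groups did not overlap, on 20 to 85 reads per library. The log2 fold change was 1.43 ± 0.22 in control and 1.30 ± 0.22 in Cd offspring (limma, adjusted p = 0.000743 and 0.00128). Without stimulated Cd library 6 it was 1.18 in Cd offspring, with an adjusted p of 0.0125 (limma), and with a pseudocount of 1 RPKM added before the log in place of 0.1 RPKM both values were below 2-fold (0.91 and 0.84). DNMT3A rose from 13.5 and 14.2 RPKM to 47.9 and 47.7 RPKM in control cells, by 1.78 ± 0.06, and by 1.61 ± 0.06 in Cd cells.

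Rab26os lies tail to tail with RAB26, the gene of a small GTPase of vesicle transport (chr17:24528251-24528744, plus strand), and shares no exon base with it. GENCODE places the small nucleolar RNA Snord60 within its span on the same strand. In control cells Rab26os was at 3.39 and 4.58 RPKM unstimulated and at 10.7 and 11.5 RPKM stimulated. In Cd cells it was at 2.44 and 2.81 RPKM unstimulated and at 9.87 and 10.5 RPKM stimulated. The stimulated libraries lay above the unstimulated ones in both, and the log2 fold changes were 1.47 ± 0.15 and 1.92 ± 0.15 (limma, adjusted p = 7.62e-05 and 1.95e-05). RAB26 itself was barely expressed, with a mean of 0.274 RPKM and 2 to 15 reads per library, and was not tested. In control libraries the log2 ratio of the pair was 3.90 and 4.30 without and 4.70 and 4.78 with stimulation, and 2.97 and 3.61 against 4.11 and 4.38 in Cd libraries.

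Slain1os and Tbc1d22bos both lie inside their hosts and fell in both sets of mice. Slain1os (chr14:103692983-103699432, minus strand) went from 2.09 and 2.02 RPKM to 1.12 and 0.848 RPKM in control cells and from 2.18 and 2.84 RPKM to 0.912 and 0.889 RPKM in Cd cells. Its log2 fold changes were -1.0 ± 0.20 and -1.37 ± 0.20 (limma, adjusted p = 0.00286 and 0.000555). SLAIN1, which encodes a protein of growing microtubule ends, had log2 fold changes of -0.53 and -0.60, short of 2-fold (adjusted p = 0.00114 and 0.000601, limma). The groups of Slain1os did not overlap, but its value in control offspring was at the 2-fold limit. Without unstimulated control library 6 or 7 it was -0.98 and -1.02, with adjusted p of 0.0172 and 0.0146, and without stimulated control library 7 it was -0.82, with an adjusted p of 0.0194 (limma).

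Tbc1d22bos (chr17:29578816-29596305, minus strand) went from 3.96 and 4.09 RPKM to 2.05 and 1.33 RPKM in control cells. In Cd cells it went from 5.54 and 4.55 RPKM to 1.58 and 1.45 RPKM. The groups did not overlap, and the log2 fold changes were -1.23 ± 0.20 and -1.66 ± 0.20 (limma, adjusted p = 0.00111 and 0.000228). Without stimulated control library 7 the value in control offspring was -0.94, below 2-fold. TBC1D22B, named for a domain found in regulators of Rab GTPases, had log2 fold changes of -0.84 and -0.76 (adjusted p = 2.00e-05 and 3.56e-05, limma). Of the exon bases, 5.03% of Slain1os and 6.26% of Tbc1d22bos lay on host exons.

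**Figure D2:**
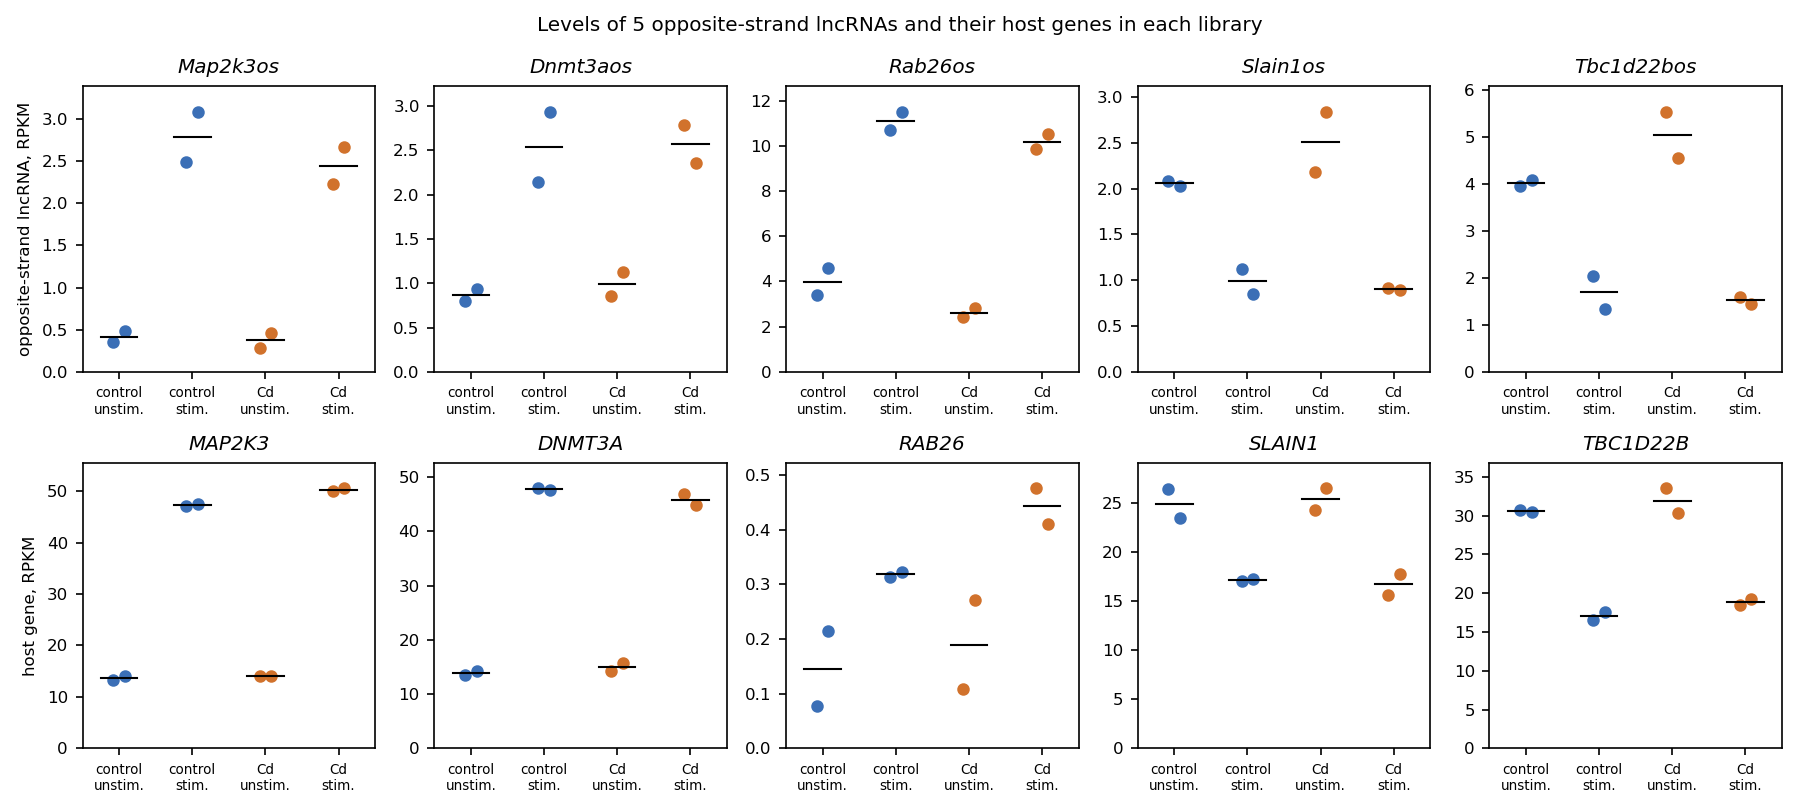
Level in RPKM (vertical axis, from 0) of Map2k3os, Dnmt3aos, Rab26os, Slain1os and Tbc1d22bos (top) and their hosts (bottom) in the 4 groups. Points are the 2 libraries of a group, blue for control and orange for Cd offspring, and black lines are means. Map2k3os rose from at most 0.484 RPKM to at least 2.23 RPKM with stimulation.

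Among the other genes that fell, Rbm3os had the lowest adjusted p in both sets. It starts inside RBM3, the gene of a cold-inducible RNA-binding protein, and overlaps its start, with 9.68% of its exon bases on host exons. It went from 5.55 and 5.98 RPKM to 2.37 and 1.83 RPKM in control cells and from 6.55 and 6.43 RPKM to 1.84 and 1.82 RPKM in Cd cells. The log2 fold changes were -1.42 ± 0.14 and -1.77 ± 0.14 (limma, adjusted p = 5.91e-05 and 1.96e-05). RBM3 stayed between 19.9 and 23.2 RPKM in all libraries, and its log2 fold changes were -0.12 ± 0.07 and -0.02 ± 0.07 (limma, adjusted p = 0.173 and 0.774).

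Lppos also overlaps the start of its host LPP, the gene of a LIM domain protein of cell adhesions, with 5.12% of its exon bases on host exons. It went from 3.06 and 3.45 RPKM to 1.13 and 0.963 RPKM in control cells and from 3.14 and 3.82 RPKM to 0.959 and 1.06 RPKM in Cd cells, and the groups did not overlap. The log2 fold changes were -1.55 ± 0.17 and -1.69 ± 0.17, against -0.65 ± 0.13 and -0.85 ± 0.13 for LPP. Rapgef4os2 and its host RAPGEF4, which encodes a cAMP-activated exchange factor for Rap, both fell by more than 2-fold, with 15.9% of the exon bases of Rapgef4os2 on host exons. The log2 fold changes were -1.42 ± 0.24 and -2.05 ± 0.24 for Rapgef4os2 and -1.43 ± 0.09 and -1.28 ± 0.09 for RAPGEF4. In control offspring that of Rapgef4os2 was below 2-fold with pseudocounts of 0.5 and 1 (-0.98 and -0.72).

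Arhgap15os lies inside arhgap15, the gene of a GTPase-activating protein for Rac, with 4.15% of its exon bases on host exons. In control cells it was at 1.11 and 2.19 RPKM unstimulated and at 0.585 and 0.613 RPKM stimulated. In Cd cells it was at 3.22 and 2.74 RPKM unstimulated and at 0.310 and 0.401 RPKM stimulated. Its stimulated Cd values lay below the filter of 0.5 RPKM, which it passed mainly through its unstimulated groups. Its fall is thus not independent of that filter. The log2 fold changes were -1.25 ± 0.31 and -2.76 ± 0.31 (limma, adjusted p = 0.00889 and 0.000149), and those of the host were -1.0 ± 0.08 and -1.11 ± 0.08. The call in control offspring was lost when any library other than unstimulated control library 6 was left out: the values were -0.79, -1.22 and -1.28 without unstimulated library 7 and stimulated libraries 6 and 7 of the control offspring, and -1.25 without each of the Cd libraries, with adjusted p from 0.0132 to 0.0402 (limma).

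Frmd8os has 63.4% of its exon bases on exons of its host FRMD8 and 2 to 19 reads per library. Its mean of 0.508 RPKM passed the filter of 0.5 RPKM only through the unstimulated groups (0.740 and 0.892 RPKM, against 0.164 and 0.235 RPKM in the stimulated ones), so it had to differ. It went from 0.800 and 0.679 RPKM to 0.214 and 0.114 RPKM in control cells and from 1.08 and 0.701 RPKM to 0.252 and 0.217 RPKM in Cd cells. The log2 fold changes were -1.69 ± 0.34 and -1.54 ± 0.34. They missed the threshold without unstimulated control library 6 or 7 or stimulated control library 7 in control offspring (-1.59, -1.80 and -1.42). In Cd offspring they missed it without unstimulated library 6 or stimulated library 6 or 7 (-1.26, -1.62 and -1.47).

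A few genes passed in 1 of the 2 sets of mice. Zbtb11os1 and Man2c1os fell in control offspring by 1.37 and 1.32 on the log2 scale, and in Cd offspring their log2 fold changes were -0.78 ± 0.15 and -0.85 ± 0.14. Of their exon bases, 36.2% and 21.4% lie on host exons. WDR83OS rose in Cd offspring by 1.15 ± 0.05 on the log2 scale and was at 0.92 ± 0.05 in control offspring, just short of 2-fold. Tnk2os, with 5.10% of its exon bases on host exons, fell in Cd offspring by 1.29 ± 0.31 on the log2 scale and was at -0.49 ± 0.31 in control offspring. Without unstimulated Cd library 6, Tnk2os was at -0.93 in Cd offspring. It missed the threshold on the adjusted p also without stimulated Cd library 6 or 7 (-1.35 and -1.22) and without stimulated control library 6 or 7 (both -1.29). None of these 4 differed between the sets in the test of the difference itself (limma, adjusted p = 0.395, 0.468, 0.317 and 0.549 for Zbtb11os1, Man2c1os, WDR83OS and Tnk2os).

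The second question was whether each gene moved with its host. Of the 51 pairs tested, 34 had log2 fold changes of the same sign in control offspring and 36 in Cd offspring. Both genes passed in the same direction in 3 pairs in control offspring (Map2k3, Dnmt3a and Rapgef4) and in 5 in Cd offspring, where those of Arhgap15 and Tnk2 were added. In neither set did both genes of a pair pass in opposite directions. In 8 pairs of the control and 6 of the Cd offspring only the opposite-strand gene passed, in 7 of each only the host, and in 33 of each neither. The same counts were not taken over other pairs of the genes tested. They therefore cannot show that a gene moved with its own host more than with any other gene. Across the 51 pairs Pearson's r of the log2 fold changes was 0.63 in control and 0.68 in Cd offspring, as a description over genes that share the same 8 libraries. It was 0.79 and 0.76 over the 21 genes inside the host, 0.67 and 0.74 over the 9 that overlap its end, 0.59 and 0.07 over the 8 that overlap its start, and 0.47 and 0.61 over the 10 divergent ones. Spearman's rho of the divergent ones was 0.18 and 0.59. Among these 10 were Map2k3os, which rose with its host, and Tmem147os and Atad3aos, whose hosts rose by more than 2-fold without a call for the opposite-strand gene.

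**Figure D3:**
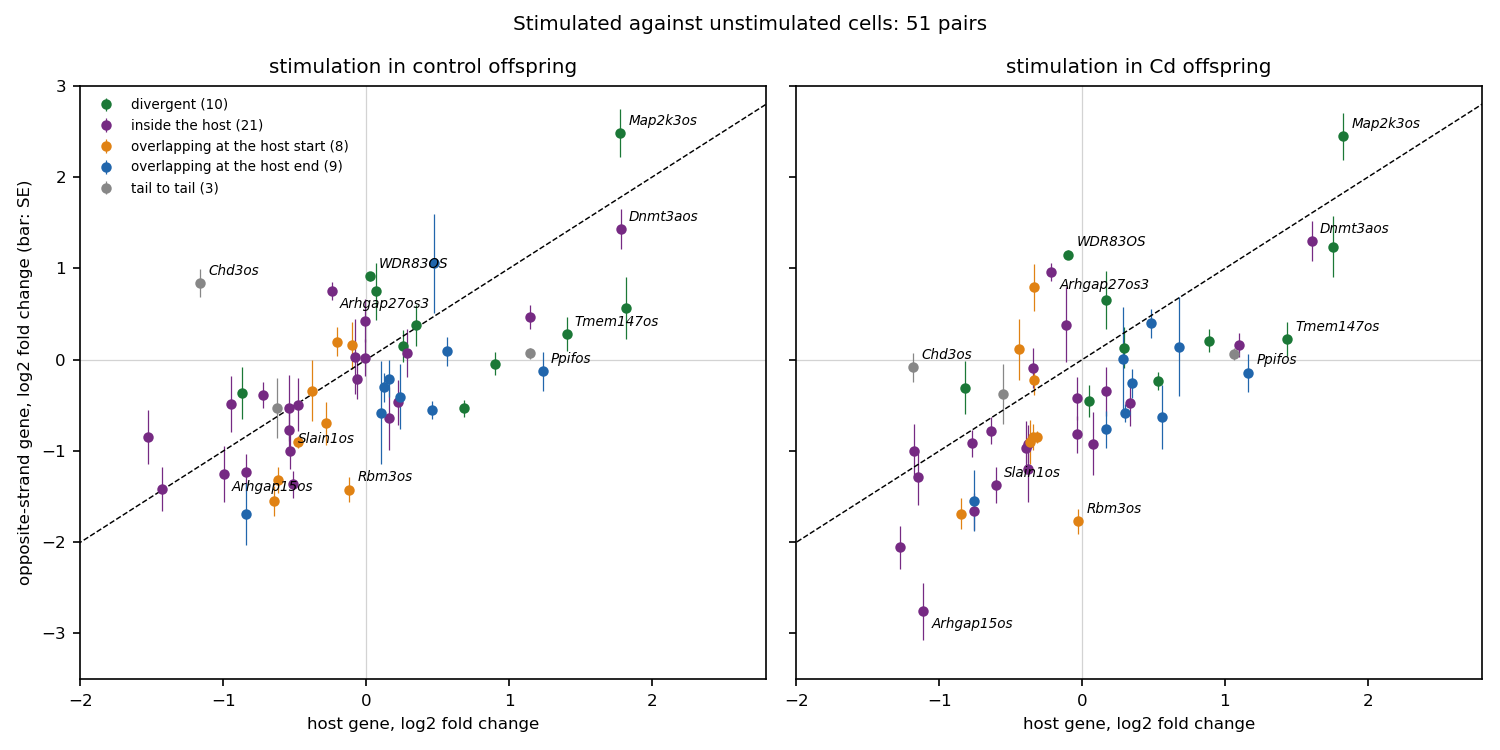
Log2 fold change with stimulation of the opposite-strand gene (vertical axis, bars are SE) against that of its host (horizontal axis) for 51 pairs, in control offspring on the left and Cd offspring on the right. Colours give the arrangement and the dashed line marks equal change. Map2k3os and Dnmt3aos lie at the upper right with their hosts, and Chd3os lies at the upper left in control offspring, where it had a log2 fold change of 0.84 and CHD3 of -1.16.

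The change relative to the host was measured in each library as the log2 ratio of the opposite-strand gene to the host. The 4 stimulated and 4 unstimulated libraries did not overlap in 25 of the 51 pairs (49%). Over all pairs that can be formed of the 12605 genes tested, they did not overlap in 66.9%, so the share among the 51 was below this background. The background was not matched for level. Most opposite-strand genes were weak and rest on few reads, and the part of level in this difference was not tested. For each of the 25, this is the smallest p that the exact two-sided permutation test can give with 4 against 4 libraries (p = 0.0286, not adjusted over the pairs). In 21 of the 25 the ratio fell and in 4 it rose. The median change over the 51 pairs was -0.39. By arrangement, the ratio did not overlap in 6 of 10 divergent pairs, 7 of 21 inside the host, 4 of 8 over the host start, 6 of 9 over the host end and 2 of 3 tail to tail. Since the ratio is taken within a library, it does not depend on the scaling of the library beyond the pseudocount.

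The ratio rose most for Chd3os, by 1.55. Chd3os lies tail to tail with CHD3, the gene of a chromatin remodeller of the NuRD complex, and shares no exon base with it. In control cells it was at 2.34 and 2.79 RPKM unstimulated and at 4.67 and 4.65 RPKM stimulated, with no overlap. In Cd cells it was at 3.42 and 4.49 RPKM unstimulated and at 3.91 and 3.48 RPKM stimulated, and these groups overlapped. CHD3 fell from 186 and 198 RPKM to 86.6 and 84.6 RPKM in control cells and from 204 and 205 RPKM to 90.1 and 90.2 RPKM in Cd cells. The ratio changed by 2.0 in control and by 1.10 in Cd offspring.

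The ratio also rose for Arhgap27os3, WDR83OS and Map2k3os. Arhgap27os3 lies inside ARHGAP27 and shares no exon base with it. It went from 6.56 and 7.68 RPKM to 12.4 and 11.7 RPKM in control cells and from 7.17 and 6.63 RPKM to 12.8 and 14.2 RPKM in Cd cells, while ARHGAP27 lay between 10.9 and 14.8 RPKM in all libraries. WDR83OS went from 36.4 and 37.4 RPKM to 67.7 and 71.7 RPKM in control cells and from 32.1 and 32.0 RPKM to 69.9 and 72.7 RPKM in Cd cells. WDR83 lay between 11.7 and 14.3 RPKM in all libraries. The ratio rose by 1.09 for Arhgap27os3, 1.07 for WDR83OS and 0.66 for Map2k3os. In GENCODE, 52.3% of the exon bases of WDR83OS lie on exons of WDR83, though the RefSeq spans of the genes do not overlap.

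The largest fall of the ratio was that of Rbm3os, by 1.53. Ppifos and Tmem147os followed, and in both pairs it was the host that moved. PPIF, the gene of the mitochondrial cyclophilin D, rose from 18.2 and 17.2 RPKM to 41.5 and 42.1 RPKM in control cells and from 20.3 and 15.5 RPKM to 38.6 and 41.3 RPKM in Cd cells. Ppifos was at 3.44 and 3.83 RPKM unstimulated and 3.51 and 3.12 RPKM stimulated in control cells, and at 4.96 and 3.10 RPKM and 3.76 and 3.33 RPKM in Cd cells, with overlap. Of its exon bases, 79.5% lie on exons of PPIF, and the part of shared reads was not tested. The ratio changed by -1.33.

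TMEM147, the gene of a membrane protein of the endoplasmic reticulum, rose from 19.3 and 17.5 RPKM to 47.1 and 50.7 RPKM in control cells, and from 17.6 and 17.1 RPKM to 45.7 and 48.6 RPKM in Cd cells. Tmem147os starts 45 bases upstream of it and was at 3.75 to 5.17 RPKM in unstimulated and at 4.74 to 6.37 RPKM in stimulated libraries, with a change of the ratio of -1.17. The host with the largest increase in control offspring was ATAD3A, a mitochondrial membrane ATPase. It rose from 16.8 and 15.6 RPKM to 56.1 and 58.6 RPKM in control cells, by 1.82 ± 0.07 on the log2 scale. Its divergent partner Atad3aos had 0.861 and 0.422 RPKM unstimulated and 0.886 and 1.02 RPKM stimulated, a log2 fold change of 0.57 ± 0.34 (limma, adjusted p = 0.175). In Cd offspring these were 1.76 ± 0.07 and 1.24 ± 0.34, and the adjusted p of Atad3aos was 0.0129 (limma).

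SLC7A6OS was level at 25.9 to 29.4 RPKM in all libraries, while SLC7A6 rose by 1.15 ± 0.05 and 1.06 ± 0.05 on the log2 scale. FAM120AOS and FAM120A, whose shared stretch is printed above, were singled out after their values were seen, because they moved apart. FAM120AOS went from 12.2 and 11.7 RPKM to 7.88 and 8.55 RPKM in control cells and from 9.27 and 9.50 RPKM to 7.32 and 8.70 RPKM in Cd cells. FAM120A, an RNA-binding protein gene, went from 59.8 and 58.6 RPKM to 96.1 and 94.6 RPKM and from 61.5 and 64.9 RPKM to 91.2 and 91.3 RPKM. Neither gene passed 2-fold, and their log2 ratio changed by -0.99 with no overlap of the libraries.

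**Figure D4:**
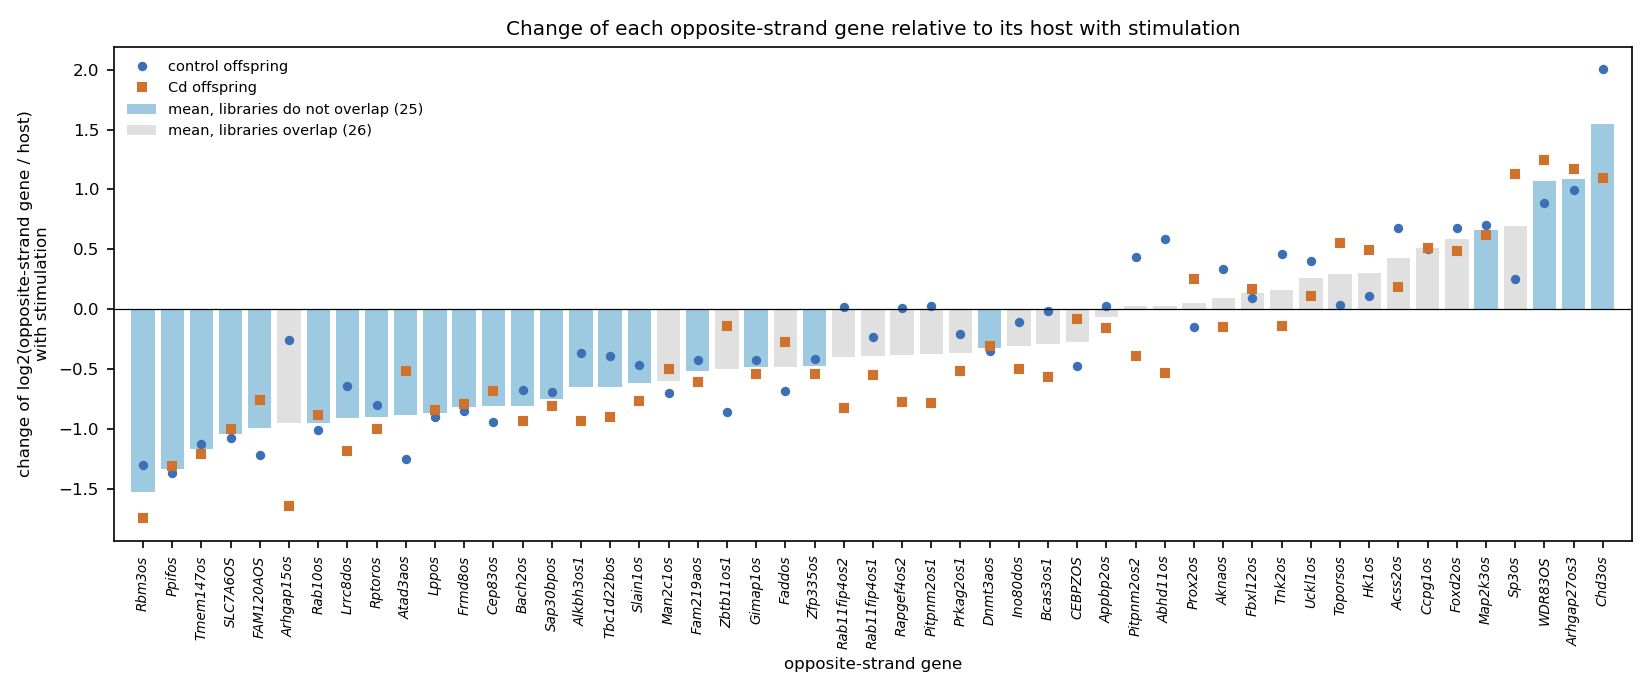
Change with stimulation of the log2 ratio of the opposite-strand gene to its host (vertical axis) for 51 pairs in order. Bars are means over control and Cd offspring, blue where the 4 stimulated and 4 unstimulated libraries did not overlap (25 pairs) and grey where they did, and points give each set of offspring. The bars run from -1.53 for Rbm3os to 1.55 for Chd3os.

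The third question was whether prenatal Cd changed these genes. No opposite-strand gene and no host passed an adjusted p under 0.05 in unstimulated cells, in stimulated cells or in the difference of the stimulation response (limma). Among all genes tested, 0.135% passed higher and 0.762% lower in unstimulated cells, 0% in either direction in stimulated cells, and 0.301% higher and 0.0555% lower for the difference. At an unadjusted p under 0.05, 12, 2 and 9 of the 53 opposite-strand genes and 4, 2 and 4 of the 67 hosts passed in the 3 comparisons, against 13.9%, 3.28% and 10.6% of all genes tested. In unstimulated cells and for the difference, the share of opposite-strand genes was above this background and that of hosts below it. In stimulated cells both were near it. The part of level in these shares was not tested. With voom on the recovered reads, the count at an adjusted p under 0.05 was also 0 of the opposite-strand genes in each comparison. The lowest adjusted p of an opposite-strand gene was 0.160 in unstimulated cells (WDR83OS), 0.892 in stimulated cells (Man2c1os) and 0.209 for the difference (Chd3os).

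The log2 differences of opposite-strand genes ran from -0.62 to 0.88 in unstimulated and from -0.62 to 0.65 in stimulated cells, and those of hosts from -0.36 to 0.39 and from -0.16 to 0.31. Most opposite-strand genes were more weakly expressed than the hosts, and the part of level in their wider range was not tested. The medians for the opposite-strand genes were 0.11 and 0.01. The largest value in unstimulated cells was that of Arhgap15os, 0.88 ± 0.31, followed by Pitpnm2os1 with 0.72 ± 0.20 and Rab11fip4os2 with 0.72 ± 0.36 (limma, adjusted p = 0.291, 0.202 and 0.424). Pitpnm2os1 was at 1.03 and 1.40 RPKM in control and at 1.94 and 2.17 RPKM in Cd unstimulated cells, and its host PITPNM2 was at 28.7 and 28.5 RPKM and at 31.1 and 27.5 RPKM. Rab26os was at 3.39 and 4.58 RPKM in control and at 2.44 and 2.81 RPKM in Cd unstimulated cells, a log2 difference of -0.57 ± 0.15 (limma, adjusted p = 0.171).

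In stimulated cells the largest values were 0.65 ± 0.14 for Man2c1os, -0.62 ± 0.31 for Arhgap15os and -0.50 ± 0.22 for Appbp2os, which has 34.5% of its exon bases on host exons. Man2c1os was at 1.02 and 1.05 RPKM in control and at 1.75 and 1.60 RPKM in Cd stimulated cells, on 14 to 56 reads per library over all groups. For the difference of the stimulation response the largest were -1.51 ± 0.44 for Arhgap15os, -0.92 ± 0.22 for Chd3os and -0.91 ± 0.77 for Abhd11os (limma, adjusted p = 0.299, 0.209 and 0.683). Abhd11os, with 8.84% of its exon bases on host exons, had 5 to 31 reads per library and was at 0.556 and 2.33 RPKM in the 2 unstimulated control libraries.

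The log2 ratio to the host was higher in Cd than in control offspring for 34 of the 51 pairs in unstimulated cells. Among these were 17 of 21 pairs inside the host and 4 of 10 divergent ones. In stimulated cells it was higher for 25 of the 51, with 9 of 21 inside the host and 6 of 10 divergent. The same share over all pairs of genes tested was not computed. The median of the 51 differences was 0.17 in unstimulated and -0.02 in stimulated cells, with ranges from -0.76 to 0.77 and from -0.64 to 0.56. Without unstimulated control library 6, the median in unstimulated cells was -0.01. With 2 against 2 libraries the exact permutation test cannot go below p = 0.333, so these are values without a test. Across the pairs, Pearson's r between the difference of the opposite-strand gene and that of the host was -0.02 in unstimulated and 0.13 in stimulated cells.

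**Figure D5:**
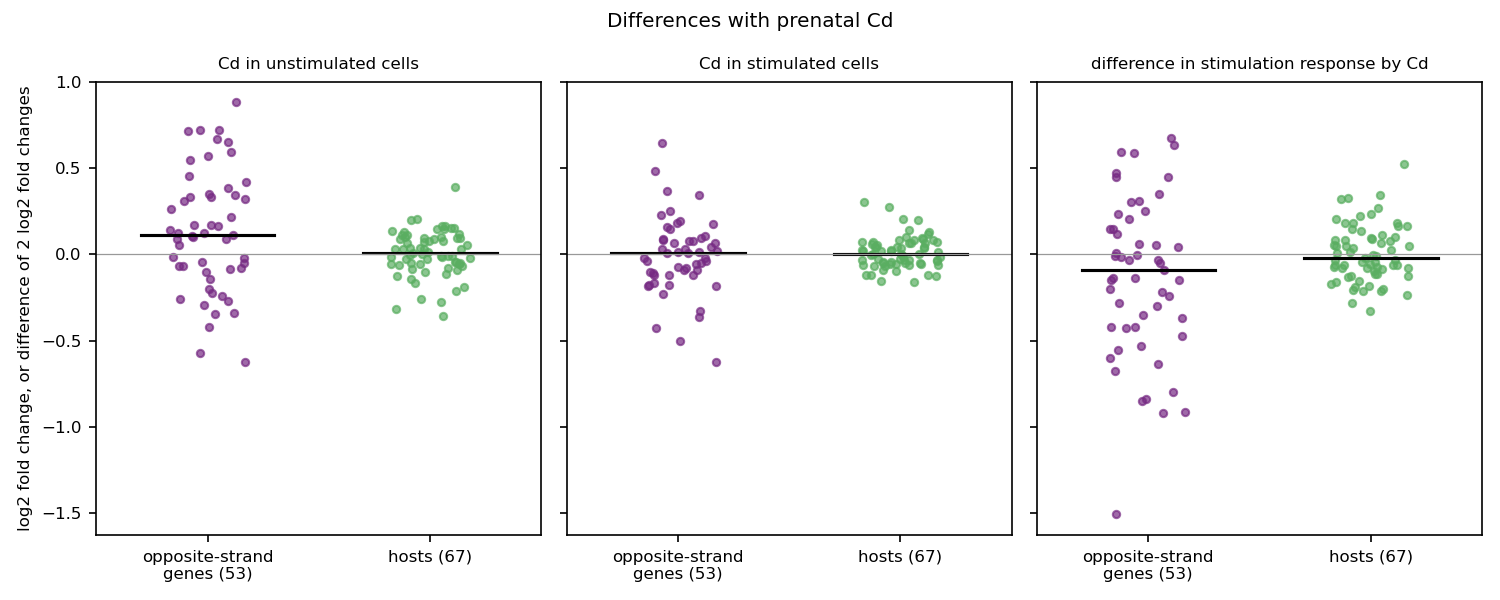
Log2 difference of Cd against control offspring in unstimulated and stimulated cells, and difference of the 2 stimulation responses (vertical axis), for 53 opposite-strand genes and 67 hosts. Points are genes and black lines are medians. No point passed an adjusted p under 0.05. The opposite-strand genes spread wider than the hosts, but most were also more weakly expressed, and the part of level in this was not tested.

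The 21 opposite-strand genes between 0.1 and 0.5 RPKM were tested only in a fit that took in all genes of at least 0.1 RPKM. Of the 21, 1 was called lower in control offspring (Kcnmb4os2) and 3 in Cd offspring (Bcas3os2, Sox5os3 and Kcnmb4os1), against 6.95% and 7.39% of the 14798 genes of that fit. None was called higher, against 10.8% and 10.7%, and none passed for Cd (against 0.108% higher and 0.622% lower in unstimulated and 0% in stimulated cells) or the difference (0.216% and 0.0203%). Sox5os3 had group means of 0.126 RPKM in unstimulated and 0.0284 RPKM in stimulated control cells, and of 0.499 RPKM and 0.0686 RPKM in Cd cells. It passed the filter of 0.1 RPKM through the unstimulated Cd cells, so it had to differ. Kcnmb4os2 had 5 and 10 reads in unstimulated and 0 and 1 read in stimulated control libraries, and 8 and 9 against 2 and 3 reads in Cd libraries. Its host KCNMB4, the gene of a potassium channel subunit, fell by 1.45 ± 0.26 and 1.39 ± 0.26 on the log2 scale. Of the exon bases of Kcnmb4os2 and Kcnmb4os1, 34.2% and 43.1% lie on host exons. The other genes also rest on few reads, 0 to 9 per library.

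Ppp1r3fos, singled out for its place, is the lncRNA Flicr of RefSeq, which has been described as a regulator of Foxp3 and whose span overlaps that gene. It was at 0.354 and 0.515 RPKM in unstimulated and 0.316 and 0.268 RPKM in stimulated control cells, and at 0.387 and 0.578 RPKM and 0.184 and 0.238 RPKM in Cd cells. Foxp3 itself was at 4.48 to 5.08 RPKM in unstimulated and at 5.98 to 7.69 RPKM in stimulated libraries. PPP1R3F, its host by name, fell from 4.63 and 4.59 RPKM to 1.88 and 1.34 RPKM in control cells, by 1.48 ± 0.18 on the log2 scale.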

How the data were processed

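RNA from splenic CD4+ T cells was sequenced in 8 libraries, 2 per group, and groups were taken from the labels. Alignment to mm10 (subread) and counting on RefSeq genes (featureCounts) were done by the authors; versions and strand setting are not given in the sources used here. The deposited table holds log2 values, log2(RPKM + 1) + 0.0001, a scale read from the values, and the RPKM were recovered from it. The test was planned for RPKM. Whole reads and library totals, 15542732 to 25486791, were recovered from the steps of low values, and depth limits weak genes first. Values log2(RPKM + 0.1) of genes with a mean of at least 0.5 RPKM went into linear models of limma 3.58.1 (in R 4.3.3) with a mean for each of the 4 groups and a variance trend, and the Benjamini-Hochberg adjustment ran over all genes tested. A leave-one-out fit takes the lone library to vary like the other groups. Stimulation was called at an adjusted p under 0.01 and over 2-fold, and Cd and the difference of the responses at an adjusted p under 0.05. Log2 ratios within pairs were compared with an exact two-sided permutation test. The pipeline was tested on simulated data.

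The members and lists were chosen with earlier results of these data known. The rule for naming took the 5 genes Map2k3os, Dnmt3aos, Rab26os, Slain1os and Tbc1d22bos, every opposite-strand gene called, the 3 largest values per comparison, the 5 pairs with the largest change of the ratio, the 3 hosts most changed by stimulation in control offspring, and the 3 genes of highest level, each with its partner. Spans came from RefSeq and, for 11 genes, from GENCODE, exons from GENCODE, and motifs were searched in RefSeq windows. Alternatives were pseudocounts of 0.5 and 1, filters of 0.1 and 1 RPKM and none, median-of-ratios and quantile scaling, only the libraries of a comparison, no trend, replicate blocks, voom on the recovered reads, an adjusted p under 0.05 for stimulation, and each library left out. Plots were drawn with matplotlib 3.10.9. A few single genes are not reported here.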

Additional observations from a re-analysis of the deposited data

How the results depend on the processing

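The counts of opposite-strand genes called with stimulation, 12 in control and 12 in Cd offspring, stayed within 1.5 times under all alternatives but 1. With a pseudocount of 1, which shrinks the changes of weak genes, 4 were called in control offspring; below 2-fold there were Zbtb11os1 (-1.0), Tbc1d22bos (-0.91), Dnmt3aos (0.91), Man2c1os (-0.87), Rapgef4os2 (-0.72), Arhgap15os (-0.70), Slain1os (-0.62) and Frmd8os (-0.58). Leaving out a library gave 8 to 11 in control and 10 to 13 in Cd offspring. For Cd in unstimulated cells, Cd in stimulated cells and the difference of the responses, 0 opposite-strand genes were called under every alternative run. The number of pairs whose ratio did not overlap, 25, was 23 to 25 under other pseudocounts and scaling and 25 to 31 with a library left out. Leaving out a library can only keep or raise this number, so that range is no check of it. The median difference of the ratio with Cd in unstimulated cells, 0.17, ran from -0.0095 to 0.22 with a library left out, the lowest without control library 6, and the cause was not tested. The numbers 6 and 7 are not said to mark a mouse or a litter. With 2 libraries per group, deviations from the group mean of same-numbered libraries correlated at -0.04 to 0.06 between groups, over 12605 genes. With a replicate block for the number, 11 were called in control and 11 in Cd offspring; the block lost the calls of Arhgap15os in control (-1.25, adjusted p = 0.0104, limma) and Tnk2os in Cd offspring (-1.29, adjusted p = 0.0138, limma). Permuting the ratio only within exposure and number put 31 pairs at the smallest p of that design, 0.125. Every pair without overlap reaches that p by construction, so this is no check of the 25 pairs either. The call of Arhgap15os in control offspring was lost under 7 alternatives other than leaving out a library and that of Tnk2os in Cd offspring under 6. No called gene changed sign. Depth limits the weak genes most: Frmd8os had 2 to 19 reads per library and Map2k3os 7 to 86.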
